A study of Mus musculus with 4 samples.

Results

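Heat shock proteins and their relatives keep other proteins folded. The genes described here were chosen by name: every gene whose platform symbol begins with Hspa, Hspb or Bag and a digit, with Hsp90, with Dnaj, or with Cct and a digit from 2 to 8, and Hspd1, Hspe1 and Hsph1. The rule found 68 genes among the 11138 measured, represented by 76 oligonucleotides and 152 spots. In the location list used here, 9 were assigned to the endoplasmic reticulum (ER), 45 to the cytosol and 8 to the mitochondrion. The remaining 6, Dnajc14, Dnajc18, Dnajc24, Dnajc28, Dnajc8 and Hspb11, were listed under other places or none. These assignments were not checked.

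RNA came from cardiac endothelium, the cells that line the vessels of the heart, of mice taken 24 h and 4 h after an intraperitoneal injection of LPS, the endotoxin of Gram-negative bacteria, and each was set against that of saline-injected mice. The sources used here do not give strain, sex, age, dose, the number of animals or how the endothelium was isolated, and they name no promoter, transgene or cell line. Each time had 2 arrays of 2 colours made from amplified RNA, 1 with LPS RNA in Cy5 and 1 with the dyes reversed (LPS in Cy3). The labels name no separate animals for the reversed array, so a time was counted as 1 replicate and no test was made on it. The values are log2 ratios of LPS over saline. The sign of the Cy3 arrays was turned, and a direction read this way is likely from the labelled dyes but not stated in the deposited table. If the table held the opposite ratio, every higher would read lower.

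HSP70 proteins bind exposed hydrophobic stretches in an ATP cycle that J proteins (the Dnaj genes) start and that BAG and HSP110 proteins end by exchanging the nucleotide. HSP90 acts later on nearly folded clients such as kinases and steroid receptors. Small HSPs hold unfolded protein without ATP, and the CCT ring folds actin and tubulin. The cytosolic inducible members are switched on by heat shock factor 1 through the heat shock element. The ER members answer to the unfolded protein response through the ER stress element. In endothelium, Hspb1 is known as a stress protein that binds actin, and HSP90 as a partner of endothelial nitric oxide synthase.

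A call needed a distance of 1 log2 unit (2-fold) or more from 0, on the same side, on each array of the time. At 24 h the 2 main chaperones of the ER, Hspa5 and Hsp90b1, were called higher, and the J proteins Dnajb1, Dnajb12, Dnajc7 and Dnajc28 and the co-chaperone Bag3 were called lower. At 4 h Hspa1b, Hspb1, Bag4 and Dnajc5b were called higher and 0 members lower. No member was called at both times. The share of all genes called at both times is not given here, so this lack of overlap cannot be set against it. At 24 h 7 of 68 members were called (10.3%), where 7.00% of all genes were. Higher calls were 2 of 68 (2.94%, with 3.48% of all genes) and lower calls 5 of 68 (7.35%, with 3.52%). At 4 h the 4 higher calls were 5.88% of the members, where 2.25% of all genes were called higher, 0.997% lower and 3.25% in either direction. Under quantile normalization and under scaling of the arrays to a common spread, 4 members were still called at 4 h, where the share of all genes was 5.04% and 5.31%. The 2 arrays of 24 h opposed each other by 2-fold or more on either side of 0 for 2 members, Dnajb6 and Hspb2 (2.94%, with 3.69% of all genes), and those of 4 h for 3, Cct7, Dnaja3 and Dnajc14 (4.41%, with 1.42%).

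**Figure D1:**
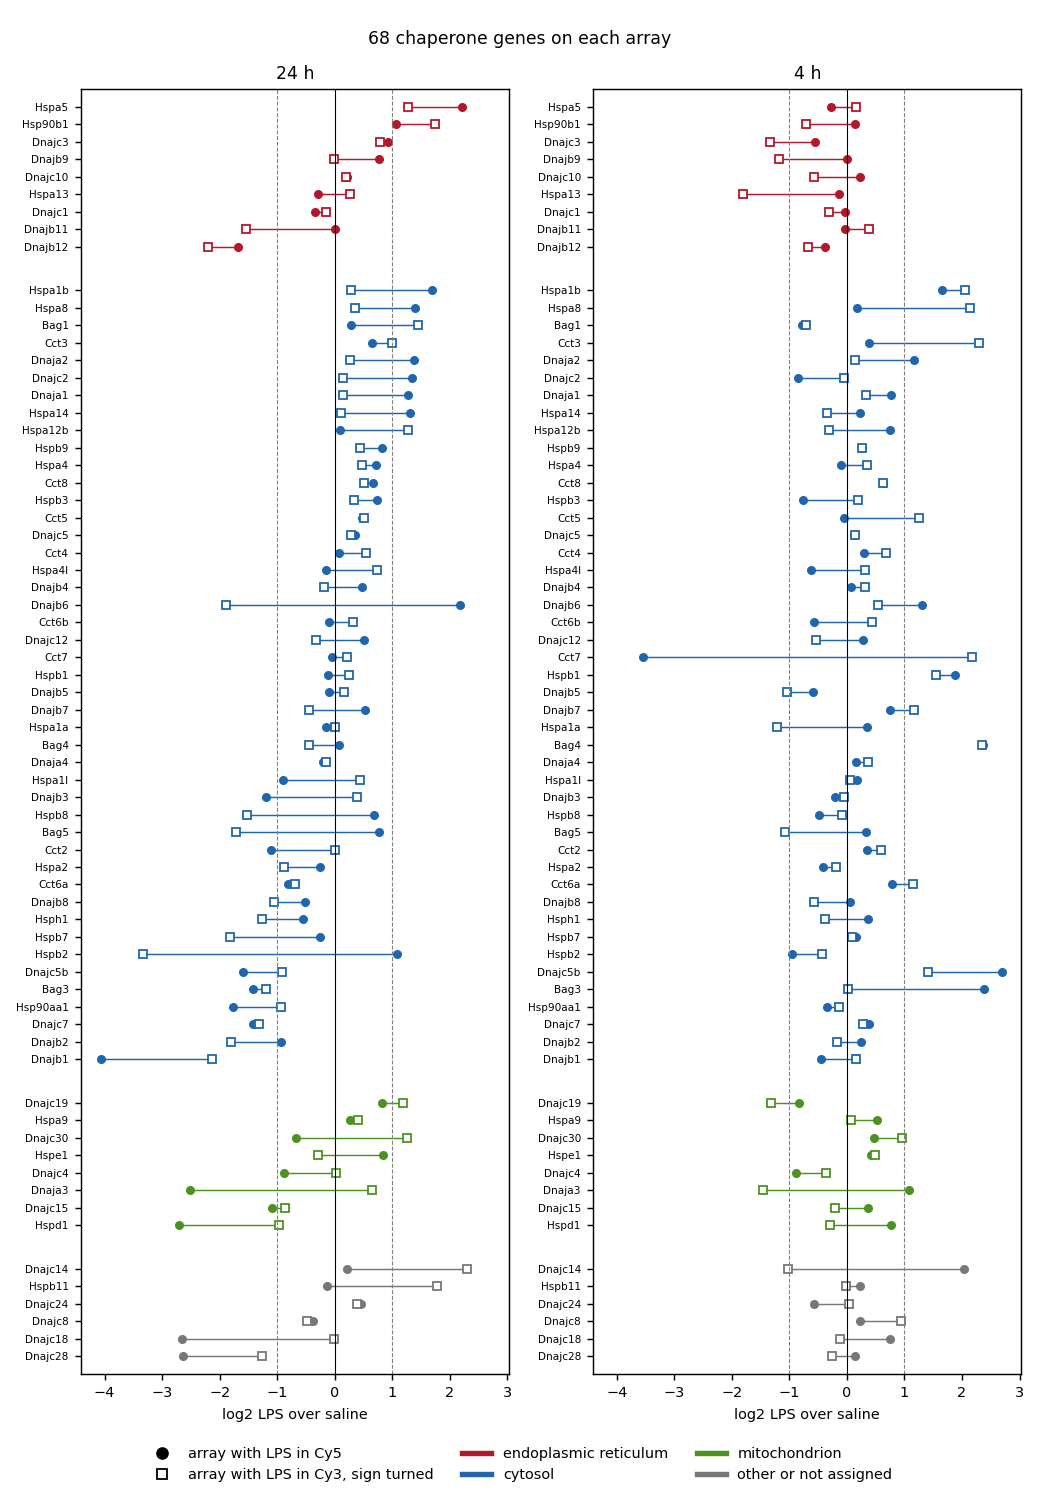
Log2 LPS over saline of the 68 chaperone genes at 24 h (left) and 4 h (right), on the array with LPS in Cy5 (filled circles) and on the array with LPS in Cy3 (open squares), joined by a line, with dashed lines at 2-fold. Hspa5 and Hsp90b1 are the 2 genes with both points above the upper dashed line at 24 h, and Dnajb1 reaches -4.07.

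The promoters of all members with a known window were searched for the 2 stress elements. RefSeq (GRCm38.p6) gave a window from 250 bases before to 50 bases after the start for 55 of the 68 members, and 13 had none (Bag4, Cct4, Dnajc12, Dnajc18, Dnajc2, Dnajc30, Dnajc5, Dnajc5b, Hsp90aa1, Hspa13, Hspa8, Hspa9 and Hspb2). The ER stress element was searched as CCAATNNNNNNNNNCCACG on both strands. It was found in 3 of the 8 ER members with a window (37.5%), in 0 of 36 cytosolic members, and in 37 of all 27025 genes (0.137%). The element is already known from ER chaperones, so its presence among them was not an independent finding. The 3 genes were Hspa5, Hsp90b1 and Dnajc3, and their stretches are shown on the gene's strand, with the element in capitals. That of Hspa5 lies at chr2:34771985-34772083 on the plus strand, that of Hsp90b1 at chr10:86705493-86705694 on the minus strand with 2 elements in opposite orientation, and that of Dnajc3 at chr14:118937787-118937885 on the plus strand.
Hspa5: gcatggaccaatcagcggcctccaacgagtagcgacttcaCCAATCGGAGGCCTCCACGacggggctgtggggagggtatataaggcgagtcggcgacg
Hsp90b1: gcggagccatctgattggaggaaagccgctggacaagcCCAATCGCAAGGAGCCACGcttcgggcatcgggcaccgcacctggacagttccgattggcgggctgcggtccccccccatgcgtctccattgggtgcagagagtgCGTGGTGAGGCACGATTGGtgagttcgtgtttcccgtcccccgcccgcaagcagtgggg
Dnajc3: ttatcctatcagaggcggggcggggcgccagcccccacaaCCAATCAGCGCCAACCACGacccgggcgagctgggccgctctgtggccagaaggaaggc
The element began 65 bases before the start of Hspa5, 105 before that of Dnajc3, and 212 and 107 before that of Hsp90b1.

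The heat shock element was searched with 3 units as GAANNTTCNNGAA on both strands. It was found in 4 of the 55 members with a window (7.27%), Hspd1, Hspe1, Hsph1 and Dnajb6, and in 179 of all 27025 genes (0.662%). The match of Hsph1 lay after the start. The element is already known from heat shock genes, so its presence among them was not an independent finding. Hspd1 and Hspe1 encode the mitochondrial HSP60 ring and its HSP10 lid, lie head to head, and share the stretch at chr1:55088019-55088116, shown on the strand of Hspd1 with the overlapping matches in capitals. The stretch of Dnajb6 lies at chr5:29735812-29735904 on the plus strand.
Hspd1: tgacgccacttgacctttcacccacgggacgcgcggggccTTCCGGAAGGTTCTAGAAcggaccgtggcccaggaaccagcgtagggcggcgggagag
Dnajb6: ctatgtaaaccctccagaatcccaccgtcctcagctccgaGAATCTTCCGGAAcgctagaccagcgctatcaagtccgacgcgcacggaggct
Hspa1b, Hspb1, Bag3 and Dnajb1 had a window without these 3 units. Only exact matches without gaps were searched, so these genes cannot be said to lack a heat shock element. With 2 units (GAANNTTC or TTCNNGAA, a choice made after the data were seen), 17 of 55 members matched (30.9%), Hspa1b, Hspb1 and Bag3 among them and Dnajb1 not, where 17.0% of all genes matched.

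Of the ER chaperones, Hspa5 (BiP), the HSP70 of the ER lumen, stood at 2.21 on the Cy5 array and 1.28 on the Cy3 array at 24 h, against -0.28 and 0.16 at 4 h. Its 4 spots of 24 h lay between 1.11 and 2.23. Both arrays of 24 h thus lay above both of 4 h, and the means of the times differed by 1.81. Hsp90b1 (GRP94), the HSP90 of the ER, stood at 1.06 and 1.75 at 24 h, against 0.14 and -0.72 at 4 h, with spots of 24 h between 1.05 and 2.08. The times did not overlap and their means differed by 1.70. The call of Hsp90b1 was lost under quantile normalization (mean 1.21) and under scaling of the arrays to a common spread (mean 1.14). It was also lost with spot pairs held within 0.5, since its spots on the Cy3 array of 24 h were at 1.42 and 2.08.

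Dnajc3 (p58IPK), an ER J protein that also restrains eIF2alpha kinases, stood at 0.93 and 0.78 at 24 h, against -0.55 and -1.34 at 4 h. It was not called at either time, and its means differed by 1.80. On each array 1 of its 2 spots lay near 0 and the other far from it. At 24 h the far spots were at 1.83 and 1.63 and at 4 h at -1.11 and -2.69. Without spots at a ratio of exactly 1, Dnajc3 was called higher at 24 h and lower at 4 h. In 3 of the 9 ER members, Dnajc3, Hsp90b1 and Hspa5, both arrays of 24 h lay above both of 4 h. The time means of these 3 differed by 2-fold or more, and 9.43% of all genes met the same criterion. With every single spot compared, Hsp90b1 and Hspa5 still met it and Dnajc3 did not. These 3 were also the members in which the ER stress element was found, a match that was not tested. Hspa13, another ER member, had no window to search.

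None of the other ER members was higher at 24 h than at 4 h by this measure. Dnajb12, a J protein of the ER membrane whose J domain faces the cytosol, was called lower at 24 h at -1.69 and -2.20, against -0.39 and -0.68 at 4 h. Its 4 spots of 24 h were between -2.42 and -1.65, and its times differed by -1.41. Dnajb11 (ERdj3), a partner of BiP in the lumen, was at 0.01 and -1.55 at 24 h, against -0.04 and 0.39 at 4 h. Dnajb9 (ERdj4), which represses the sensor IRE1, was at 0.77 and -0.02 at 24 h, against 0.00 and -1.19 at 4 h. Neither was called. Hspa13, Dnajc1 and Dnajc10 (ERdj5, a disulfide reductase) had means between -0.26 and 0.21 at 24 h, and between -0.97 and -0.17 at 4 h.

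**Figure D2:**
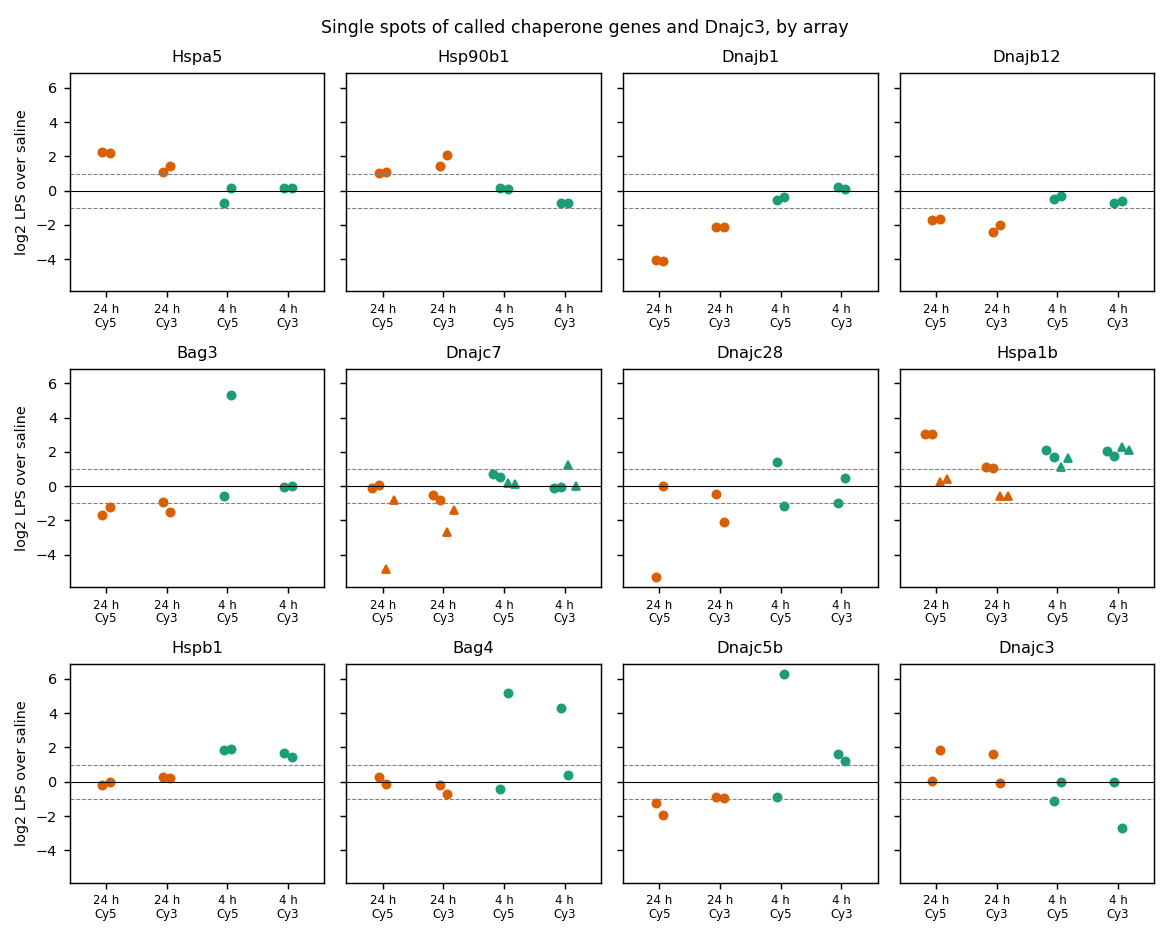
Every spot of the 11 called chaperone genes and of Dnajc3, as log2 LPS over saline, on the arrays of 24 h (orange) and 4 h (green) with LPS in Cy5 or Cy3; triangles are the second oligonucleotide of a gene, and dashed lines mark 2-fold. The 2 spots of an array lie within 0.5 of each other for Dnajb1, Dnajb12 and Hspb1. They are up to 0.66 apart for Hsp90b1 at 24 h and 0.84 for Hspa5 at 4 h. Those of Bag4 at 4 h range from -0.43 to 5.16.

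Among cytosolic J proteins, Dnajb1, the main inducible partner of cytosolic HSP70, was the lowest of the 68 members at 24 h. It stood at -4.07 and -2.14 at 24 h, against -0.45 and 0.15 at 4 h, and the 2 spots of each array of 24 h differed by at most 0.02. Its times did not overlap and differed by -2.95. Dnajb2, a J protein that sorts clients to the proteasome, was just under the threshold at -0.94 and -1.81 at 24 h, against 0.25 and -0.18 at 4 h. Dnajc7, which binds both HSP70 and HSP90, was called lower at -1.42 and -1.32 at 24 h, against 0.39 and 0.28 at 4 h. Its 2 oligonucleotides differed, with the first at -0.03 and -0.63 and the second at -2.81 and -2.01 at 24 h, and the call was lost with the median over spots. Dnajc28, listed without an assigned place, was called lower at -2.64 and -1.27, but its 4 spots of 24 h ran from -5.30 to 0.02.

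Dnajc5b, a relative of the cysteine string protein of synaptic vesicles, was at -1.60 and -0.92 at 24 h, and was called higher at 4 h at 2.69 and 1.41. The 2 spots of its Cy5 array of 4 h were at -0.88 and 6.27, so the mean of that array rested on 1 spot. Dnaja1 and Dnaja2, the general J proteins of the cytosol, were above 0 on every array, at 1.28 and 0.15 and at 1.38 and 0.26 at 24 h, against 0.77 and 0.33 and 1.16 and 0.14 at 4 h. Neither was called. Dnajb6, a J protein that suppresses aggregation, was at 2.18 and -1.89 at 24 h, against 1.31 and 0.54 at 4 h, and the arrays of 24 h opposed each other. On the Cy3 array of 24 h its 2 oligonucleotides were at -3.51 and -0.28. Over the 16 cytosolic J proteins, 2 were called lower and 0 higher at 24 h, where 3.52% of all genes were lower and 3.48% higher. At 4 h 1 was called higher and 0 lower, where 2.25% of all genes were higher and 0.997% lower.

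The cytosolic HSP70 genes included Hspa1b, an inducible HSP70, which stood at 1.69 and 0.28 at 24 h, against 1.66 and 2.05 at 4 h, where it was called higher. Every one of its 8 spot values of 4 h lay between 1.14 and 2.29. At 24 h its 2 oligonucleotides parted, with the first at 3.05 and 1.11 and the second at 0.33 and -0.55. Hspa1a, a near-identical copy of Hspa1b, was at -0.15 and 0.00 at 24 h, against 0.35 and -1.21 at 4 h. The sequences of the oligonucleotides were not used here, so signal from 1 copy on the spots of the other cannot be told apart. Hspa8, the constitutive HSP70, was above 0 on every array, at 1.39 and 0.35 at 24 h, against 0.17 and 2.14 at 4 h, and was not called because 1 array of each time was under 2-fold. Hspa14, Hspa1l and Hspa2, the last known from the testis, had means between -0.56 and 0.71 at 24 h, and between -0.30 and 0.12 at 4 h.

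Hsp90aa1, the inducible cytosolic HSP90, stood at -1.77 and -0.93 at 24 h, against -0.34 and -0.14 at 4 h. It was not called, and its times did not overlap, with means that differed by -1.11. Its direction at 24 h was opposite to that of its ER relative Hsp90b1. Hsph1 (HSP110), which exchanges the nucleotide of HSP70, was at -0.55 and -1.27 at 24 h, against 0.37 and -0.39 at 4 h, and the HSP110 relatives Hspa4 and Hspa4l ranged from -0.62 to 0.74 over the arrays.

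Of the small HSPs, Hspb1 (HSP25) was called higher at 4 h at 1.88 and 1.54, where its 4 spots lay between 1.42 and 1.93. At 24 h it was at -0.11 and 0.25. The times did not overlap, with a difference of -1.64 for 24 h minus 4 h. Hspb7, a small HSP of heart muscle, was at -0.26 and -1.83 at 24 h, against 0.16 and 0.09 at 4 h. Hspb2, Hspb3, Hspb8 and Hspb9 were not called at either time, and Hspb11, which is named as a small HSP but acts in ciliary transport, had means of 0.82 at 24 h and 0.11 at 4 h.

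Among BAG proteins, Bag3, which links HSP70 to autophagy and small HSPs, was called lower at -1.43 and -1.20 at 24 h, against 2.38 and 0.01 at 4 h. The spots of its Cy5 array of 4 h were at -0.56 and 5.32, and 1 of its 4 spots of 24 h, at -0.90, was under 2-fold. Its call was lost under scaling (mean -1.06). Bag4, a silencer of death receptors, was called higher at 4 h at 2.36 and 2.35, but its spots were at -0.43 and 5.16 on the Cy5 array and at 4.31 and 0.39 on the Cy3 array. At 24 h it was at 0.07 and -0.44. Bag1, which binds HSP70 and Bcl2, was at 0.28 and 1.44 at 24 h, against -0.78 and -0.71 at 4 h, so the times lay on opposite sides of 0. Bag5 differed between arrays, at 0.77 and -1.71 at 24 h, against 0.33 and -1.08 at 4 h.

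Of the 8 CCT subunits measured, 0 were called at either time, and their median was 0.20 at 24 h, against 0.54 at 4 h. Cct6a was at -0.82 and -0.70 at 24 h, against 0.78 and 1.15 at 4 h, and Cct2 at -1.11 and 0.00 at 24 h, against 0.35 and 0.60 at 4 h. Both were lower at 24 h by at least 2-fold in the mean. Cct8 was close to the same value on all arrays, at 0.66 and 0.50 at 24 h, against 0.63 and 0.63 at 4 h. Cct3 was above 0 on every array, at 0.64 and 0.99 at 24 h, against 0.38 and 2.29 at 4 h. Cct7, whose arrays of 4 h opposed each other at -3.54 and 2.17, had spots at -0.35 and -6.73 on the Cy5 array of 4 h.

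In the mitochondrion, Hspd1 (HSP60) was just under the threshold at 24 h, at -2.71 and -0.97, against 0.76 and -0.30 at 4 h. Its spots of 24 h ran from -4.29 to -0.33. Without spots at a ratio of exactly 1, Hspd1 was called lower at 24 h. Hspe1, which shares its promoter, was at 0.83 and -0.30 at 24 h, against 0.42 and 0.49 at 4 h, so both arrays of 24 h lay below 0 for Hspd1 and lay on either side of 0 for Hspe1. Dnajc19, of the import motor, was at 0.82 and 1.19 at 24 h, against -0.83 and -1.32 at 4 h. Dnajc15, its relative, was at -1.09 and -0.86 at 24 h, against 0.36 and -0.20 at 4 h. The spots of Dnajc15 at 24 h were at 1.05 and -3.23 on the Cy5 array and at -1.56 and -0.15 on the Cy3 array. Hspa9 (mortalin) was above 0 on every array, with a highest value of 0.53. None of the 8 mitochondrial members was called with all spots kept.

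ER members were compared with cytosolic members. At 24 h the median of the 9 ER members was 0.21, against 0.07 for the 45 cytosolic members and -0.02 for all genes. At 4 h it was -0.29, against 0.13 for cytosolic members and -0.02 for all genes. The ER minus cytosolic median was thus 0.14 at 24 h, with 0.15 on the Cy5 array and 0.08 on the Cy3 array, and -0.42 at 4 h, with -0.27 and -0.87. With oligonucleotides held to spots within 0.5 of each other, the gap at 24 h was -0.31, over 2 ER and 24 cytosolic members. The gap at 4 h was -0.64 under quantile normalization and -0.65 under scaling. These are descriptions with no test, since genes are not replicates. The range of members was far wider than the gap of the medians, from -1.95 to 1.74 for ER and from -3.10 to 0.99 for cytosolic members at 24 h, and from -0.97 to 0.17 and from -0.81 to 2.36 at 4 h. Of the 9 ER members, 2 were called higher and 1 lower at 24 h, against 0 higher and 3 lower of the 45 cytosolic members. The shares of all genes were 3.48% higher and 3.52% lower. At 4 h 0 of 9 ER members were called, against 4 of 45 cytosolic members higher and 0 lower. Of all genes, 2.25% were then called higher and 0.997% lower.

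**Figure D3:**
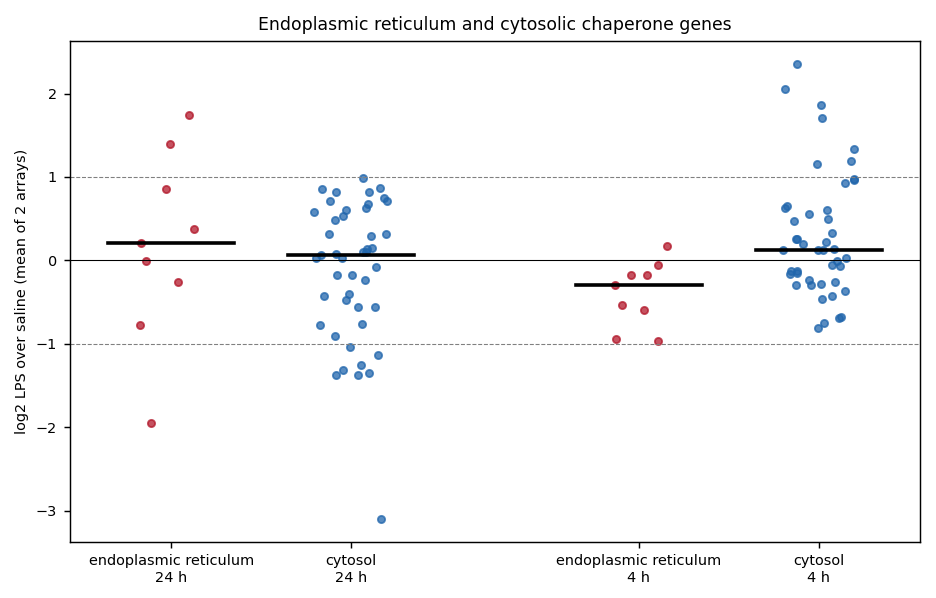
Mean log2 LPS over saline of each ER (red) and cytosolic (blue) chaperone gene at 24 h (left) and 4 h (right), with the median as a black bar and dashed lines at 2-fold. The highest ER gene at 24 h stands at 1.74 and the lowest cytosolic gene at -3.10, while the medians differ by 0.14.

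For 24 h against 4 h, a gene counted as separated if its time means stood 1 log2 unit or more apart with no overlap between the arrays of the times. By this, 22 of 68 members (32.4%) were separated, where 19.8% of all genes were. Of these, 6 were higher at 24 h (8.82%, with 9.43% of all genes), namely Bag1, Dnajc19, Dnajc2, Dnajc3, Hsp90b1 and Hspa5. The other 16 were lower at 24 h (23.5%, with 10.3%). They comprised 11 cytosolic members (Bag3, Bag4, Cct2, Cct6a, Dnajb1, Dnajb2, Dnajc5b, Dnajc7, Hsp90aa1, Hspb1 and Hspb7) and Dnajb12, Dnajc15, Hspd1, Dnajc28 and Dnajc8. With every single spot separated, 11 members were left, 4 higher at 24 h (Bag1, Dnajc19, Hsp90b1 and Hspa5) and 7 lower (Bag3, Cct6a, Dnajb1, Dnajb12, Dnajb2, Hspb1 and Hspb7). The share of all genes was not computed for this stricter rule, so these counts cannot be set against it. Dnajc2, which acts at the ribosome, was separated only in the mean of its 3 oligonucleotides, and the times overlapped in each of them. They ranged from -0.63 to 4.38 on the Cy5 array of 24 h. The sources used here do not say whether the times shared their saline RNA.

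**Figure D4:**
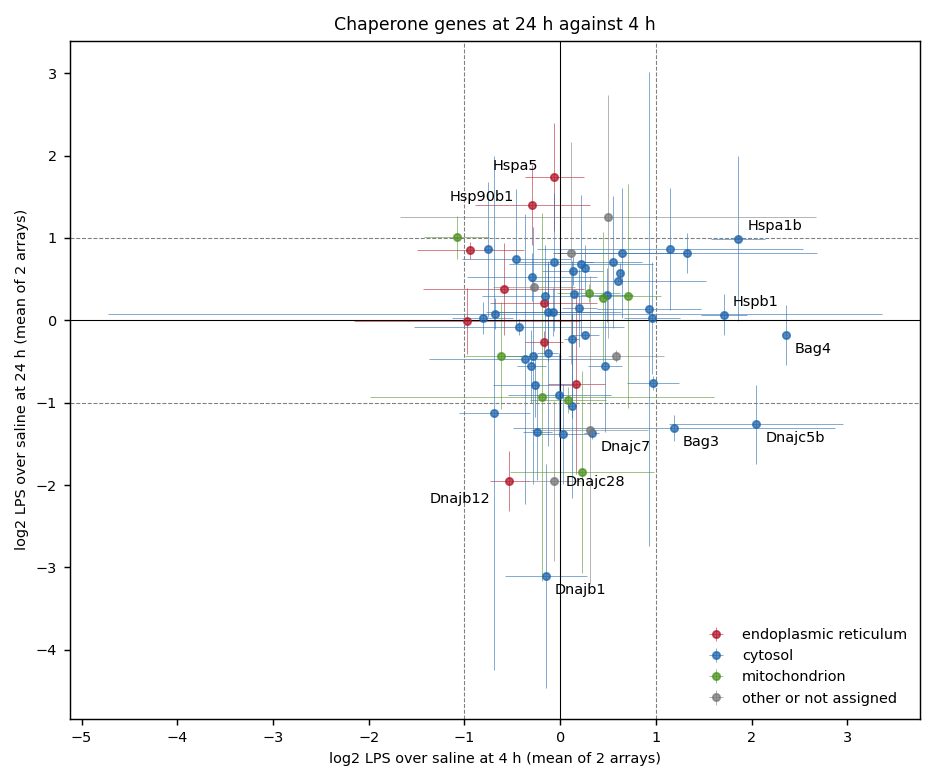
Mean log2 LPS over saline of each chaperone gene at 24 h (vertical axis) against 4 h (horizontal axis), coloured by compartment; bars are the SD of the 2 arrays, dashed lines mark 2-fold, and the called genes are named. Hspa5 and Hsp90b1 lie above the upper line near 0 on the horizontal axis, Hspb1 and Hspa1b to the right of the right line, and Dnajb1 at -3.10 on the vertical axis.

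Several calls rested on single spots. With all spots required to pass 2-fold, 4 of 68 members were called at 24 h (5.88%, with 3.65% of all genes). They were Hspa5 and Hsp90b1 higher (2.94%, with 1.87%) and Dnajb1 and Dnajb12 lower (2.94%, with 1.78%). At 4 h 2 were called (2.94%, with 1.57%), Hspa1b and Hspb1, both higher (with 1.25% of all genes), and 0 lower (with 0.323%). The calls of Bag3, Dnajc7 and Dnajc28 at 24 h, and of Bag4 and Dnajc5b at 4 h, were not 2-fold in every spot. Spots of 1 oligonucleotide were over 2-fold apart on an array in 26 members at 24 h (38.2%, with 49.1% of all genes) and in 20 members at 4 h (29.4%, with 36.8%). Just inside the threshold at 24 h lay Hsp90b1, with 1.06 on its array nearer 0, and Bag3, with -1.20, and just outside lay Hspd1 (-0.97) and Dnajb2 (-0.94). At 4 h Dnajc5b (1.41) and Hspb1 (1.54) lay just inside, and Cct6a (0.78) and Dnajc19 (-0.83) just outside. When limma took the 4 arrays for independent samples, 0 of 11138 genes reached an adjusted p under 0.05 at either time or between the times. The lowest adjusted p of a member in limma was 0.391 at 24 h, 0.626 at 4 h and 0.804 between the times. At an unadjusted p under 0.05, limma gave 10 of 68 members and 1126 of 11138 genes at 24 h. It gave 6 of 68 members and 475 of 11138 genes at 4 h. Between the times it gave 13 of 68 members and 638 of 11138 genes.

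Other folding genes were read beside the members in 4 lists, 61 genes in all. Of 28 genes of ER folding and the unfolded protein response, 3 were called higher and 1 lower at 24 h, and 0 at 4 h. The shares of all genes were 3.48% higher and 3.52% lower at 24 h, and 3.25% in either direction at 4 h. Selenos, which helps draw misfolded protein out of the ER, stood at 1.60 and 2.13 at 24 h, against 0.11 and -0.06 at 4 h. Hyou1, the nucleotide exchanger of BiP, was at 1.25 and 1.09 at 24 h, against 0.67 and 0.22 at 4 h, and Derl2, of ER-associated degradation, at 1.06 and 1.80, against -0.57 and 1.15. Not every spot of Hyou1 and Derl2 was 2-fold. Sel1l, the adaptor of the HRD1 ligase, was lower at -2.57 and -1.59 at 24 h, against -2.66 and -0.77 at 4 h.

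The other 24 genes of the list of ER folding and the unfolded protein response were not called. Xbp1, a main transcription factor of the unfolded protein response, was near 2-fold at both times, at 0.93 and 1.23 at 24 h, against 1.15 and 0.73 at 4 h, and Ddit3 (CHOP) was at -0.81 and -0.59 at 24 h, against 0.07 and 0.50 at 4 h. Of the 14 array genes with the ER stress element in their window, 2 were called higher at 24 h (Hspa5 and Hsp90b1) and 0 lower. Both are members already called above, and no other gene with the element was called. The group therefore gave no separate support. The shares of all genes were 3.48% higher and 3.52% lower. The median of the 14 genes was 0.22 at 24 h, against -0.09 at 4 h. The lectin chaperone Canx, with the element, was at 1.47 and 0.78 at 24 h, and its partner Calr at -0.97 and 1.30, so members of this group differed.

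Partners of cytosolic HSP70 and HSP90 and regulators of heat shock factors made up 15 genes. None was called at 24 h, and at 4 h 1 was called higher, Hsf2bp, a germ cell gene that binds HSF2, at 1.80 and 1.57. Its values at 24 h were -1.40 and 1.91. The HSP70 partner St13 was at -0.44 and -1.74 at 24 h, against 0.43 and 0.36 at 4 h. Of 8 genes of CCT1 and prefoldin, 0 were called at either time. Of 10 mitochondrial chaperones and proteases, 0 were called at 24 h and 1 at 4 h, the import channel gene Timm23 at 1.36 and 1.34. Of the 46 genes on the arrays with the 3-unit heat shock element, 2 were called higher and 1 lower at 24 h, and 1 higher and 0 lower at 4 h. None of the 4 members among them was called. For comparison, 3.48% of all genes were called higher and 3.52% lower at 24 h, and 2.25% higher and 0.997% lower at 4 h.

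The table held ratios and no intensities, so the presence of endothelial markers could not be checked, and fewer cells of a type cannot be told apart from less RNA per cell. Of 16 endothelial markers, 4 were called higher and 0 lower at 24 h, with means from -0.77 to 4.06, and 1 higher and 2 lower at 4 h, with means from -1.89 to 1.29. Of 13 neutrophil markers, 3 were called higher and 1 lower at 24 h, with means from -1.62 to 2.59, and 0 at 4 h. Among 19 cardiomyocyte, 11 monocyte and macrophage, 10 lymphocyte, 11 fibroblast, 10 smooth muscle and pericyte, 8 erythrocyte and 7 platelet markers, 5 were called higher and 4 lower at 24 h, and 1 higher and 0 lower at 4 h. For comparison, 3.48% of all genes were called higher and 3.52% lower at 24 h, and 2.25% higher and 0.997% lower at 4 h. The part of the cell type markers in the chaperone values was not tested. The 2 spots of an oligonucleotide correlated at 0.318 and 0.319 on the arrays of 24 h and at 0.195 and 0.284 on those of 4 h.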

How the data were processed

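The deposited table holds log2 ratios of the 2 channels for 32448 spots on each of 4 arrays. How the authors went from scanner to ratio, and the direction of the ratio, is left as not given in the sources used here. On labelling, the first array of a time had LPS in Cy5 and the second in Cy3, per the labels, and the sign of the second was turned for that reason. Over all spots the turned arrays correlated at 0.064 at 24 h and 0.0563 at 4 h, and over oligonucleotides whose 2 spots lay within 0.5 at 0.501 and 0.372. Spots with 1 gene symbol (24344) were averaged per oligonucleotide, then per gene, and centred on each array's median over genes. All 68 members matched a RefSeq gene by identifier. limma 3.58.1 (R 4.3.3) was an alternative only. A planned comparison of protein ends was not run. The code for the calls was tested on simulated data, which says nothing of the error of these arrays. Genes named were every called or separated member, every member 2-fold in opposite directions, a fixed set of main chaperones, and called genes of the folding lists, besides others named after their values were seen. Hsp90ab1, in that set, is not analysed here. The members, compartments and lists were chosen with earlier results of these data known. The number of arrays limits the precision, and p-values measure only the spread between arrays.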

Additional observations from a re-analysis of the deposited data

Results flagged for a closer look

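Separated members were looked at again where both arrays of 24 h lay on one side of 0 and both of 4 h on the other. There were 10 such members of 68 (14.7%), where 881 of 11138 genes (7.91%) met the same criterion. The difference of 24 h minus 4 h was 1.61 for Bag1, 2.08 for Dnajc19, 1.21 for Dnajc2 and 1.80 for Dnajc3. It was -2.51 for Bag3, -1.73 for Cct6a, -3.31 for Dnajc5b, -1.70 for Dnajc7, -1.01 for Dnajc8 and -1.17 for Hspb7. With 1 replicate a time the difference was not tested. With the arrays as separate samples, limma gave a lowest adjusted p of 0.804 for the difference among all members. Of these 10, Bag1, Dnajc19, Bag3, Cct6a and Hspb7 were also separated in every spot, a rule not computed over all genes.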

How the results depend on the processing

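Called members numbered 7 at 24 h and 4 at 4 h, and separated members 22. With a 1.5-fold threshold 16 members were called at 24 h (23.5%, with 16.2% of all genes) and 10 at 4 h (14.7%, with 8.45%). Where every spot had to pass, 4 were left at 24 h (5.88%, with 3.65% of all genes) and 2 at 4 h (2.94%, with 1.57%). Between the times 11 were left, and the share of all genes was not computed. At an adjusted p under 0.05, limma gave 0 members at 24 h, 0 at 4 h and 0 between the times. With spot pairs within 0.5, which left 28, 32 and 15 members with a value, 3 were called at 24 h (10.7%, with 10.5% of all genes so filtered), 2 at 4 h (6.25%, with 3.12%) and 4 were separated (26.7%, with 22.0%), and the ER minus cytosolic median at 24 h was -0.31 over 2 ER members. With no sign turned, as if the table were already turned alike, the calls are by construction the genes 2-fold in opposite directions. They were Dnajb6 and Hspb2 at 24 h (2.94%, with 3.69% of all genes), and 3 members at 4 h (4.41%, with 1.42%). None could be a call above, so this setting was no check on those calls. With no sign turned, 10 members were separated (14.7%, with 11.7%). Dnajb12 and Hsp90b1 at 24 h were then at 0.25 and -0.34 and Hspa1b at 4 h at -0.20, and the ER minus cytosolic medians were -0.01 at 24 h and 0.43 at 4 h. With ER lumen members only the ER minus cytosolic median at 24 h was 0.22. Leaving out 1 array gave 22 to 23 members past 2-fold at 24 h and 10 to 19 at 4 h, and 25 to 32 separated. The share of all genes was not computed with 1 array left out, so these counts cannot be set against it. The ER minus cytosolic medians were then 0.08 to 0.15 at 24 h and -0.87 to -0.27 at 4 h. Quantile normalization, scaling, leaving out ratios of exactly 1 and the median over spots kept the counts within 1.5 times. They gave 6, 5, 9 and 6 called members at 24 h and 4, 4, 5 and 4 at 4 h. Leaving out ratios of exactly 1 called 7.91% of the genes with a value at 24 h and 3.82% at 4 h. The median over spots called 6.96% and 3.23% of all genes. Members gained without ratios of exactly 1 were Dnajc3 and Hspd1 at 24 h and Dnajc3 at 4 h. Over all genes, quantile normalization called 525 genes at 24 h (4.71%) and 561 at 4 h (5.04%), and scaling 470 (4.22%) and 591 (5.31%), and the ER minus cytosolic median at 4 h was -0.64 and -0.65 under them. No paired analysis was possible because the labels give no replicate numbers and the array numbers follow accession order. The table gives no signal over background, so dim spots were not filtered.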
